A study of Mus musculus with 7 samples.

Results

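The genes described here are the extracellular enzymes that finish collagen and elastin fibres after secretion, together with 1 protein that assists them. They are the 5 lysyl oxidases Lox, Loxl1, Loxl2, Loxl3 and Loxl4, the 3 procollagen N-proteinases Adamts2, Adamts3 and Adamts14, the procollagen C-proteinase Bmp1 and its enhancer Pcolce. The 10 genes were chosen by function, by symbol and gene identifier, out of 55487 genes in the files, with earlier results of these data known. All 10 were among the 15688 genes with enough reads to be tested.

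RNA from thoracic aortas (in 1 legend of the study, the descending part) of 7-week-old male C57BL/6 mice (C57BL/6J in the study's text) was sequenced, with 1 library for each of 4 wild-type Col3a1+/+ mice and 3 heterozygous Col3a1+/G182R mice. All mice were untreated. In Col3a1+/G182R mice 1 allele of Col3a1, the type III procollagen gene, carries a knock-in change of a glycine of the triple helix to arginine, made in embryonic stem cells and present in every tissue. These mice model vascular Ehlers-Danlos syndrome, in which arteries rupture, and the libraries serve to ask how the aortic transcriptome differs between the genotypes. Because the tissue was extracted without separating its cell types, fewer cells of a type and less RNA per cell cannot be told apart.

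Fibrillar procollagens are secreted with propeptides at both ends. ADAMTS2, ADAMTS3 and ADAMTS14 cut off the amino-terminal propeptide, BMP1 cuts off the carboxy-terminal propeptide, and PCOLCE binds that propeptide and speeds the cut by BMP1. Trimmed collagen assembles into fibrils, and the lysyl oxidases, which are copper enzymes, oxidise lysine residues of collagen and elastin so that the chains become cross-linked. In the aorta LOX and LOXL1 are known for elastic fibre formation, and loss of LOX in mice leads to aortic aneurysm and rupture.

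Each enzyme has a short stretch of histidines that holds its metal. These stretches are shown to make visible how close the members of each family are, since reads are assigned to a member by its sequence. The letters are the coding bases of the reference genome GRCm38 with the GENCODE M21 transcripts, read 5′ to 3′ on the strand of the gene, 33 bases each, with the histidine codons in capitals. The first 4 are copper-binding stretches of lysyl oxidases and the last 4 are zinc-binding stretches of the proteinases.
Loxl1: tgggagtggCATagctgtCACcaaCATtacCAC
Loxl2: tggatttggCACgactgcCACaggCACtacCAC
Loxl3: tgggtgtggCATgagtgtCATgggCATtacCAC
Loxl4: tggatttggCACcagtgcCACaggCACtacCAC
Adamts2: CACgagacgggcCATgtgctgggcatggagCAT
Adamts3: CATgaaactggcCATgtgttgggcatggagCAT
Adamts14: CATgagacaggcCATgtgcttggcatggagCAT
Bmp1: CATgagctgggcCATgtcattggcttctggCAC

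The 4 lysyl oxidase stretches each hold 4 histidine codons and the 4 proteinase stretches each hold 3. Loxl2 and Loxl4 were the closest pair, identical at 31 of 33 bases, whereas Loxl1 and Loxl4 were identical at 21. Adamts2 and Adamts14 were identical at 30 of 33 bases, and Bmp1 shared 21 to 23 bases with the 3 Adamts genes. Over whole transcripts, the longest run of identical bases between any pair of the 10 genes was 39 bases, between Adamts14 and Bmp1, and the longest between lysyl oxidases was 32 bases, between Lox and Loxl1.

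The stretch lies in exons 3 and 4 of Loxl1 (chr9:58293720-58294381, minus strand) and in exons 10 and 11 of Loxl2 (chr14:69682316-69689037, plus strand). It lies in exons 10 and 11 of Loxl3 (chr6:83049995-83050125, plus strand) and in exons 11 and 12 of Loxl4 (chr19:42598807-42599899, minus strand). Among the proteinases it lies in exons 7 and 8 of Adamts2 (chr11:50775403-50776134, plus strand), exons 8 and 9 of Adamts3 (chr5:89707433-89707818, minus strand), exons 7 and 8 of Adamts14 (chr10:61225465-61227123, minus strand) and exon 5 of Bmp1 (chr14:70508060-70508092, minus strand). Every range but that of Bmp1 includes the intron between both exons. Pcolce (chr5:137605103-137613784, minus strand) encodes no enzyme and has no such stretch.

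Total expected counts ran from 13693861 to 21634680 in the wild-type libraries and from 18820015 to 23953746 in those of Col3a1+/G182R. On the first principal component of all tested genes, which carried 43.3% of the variance, Col3a1+/+ replicate 4 stood farthest out at 65.6, beside -11.2 to 31.2 for the other Col3a1+/+ and -35.2 to -25.1 for the Col3a1+/G182R libraries. The gap between full and effective gene length, which follows fragment length, was 114 to 120 bases in Col3a1+/+ and 121 to 131 bases in Col3a1+/G182R libraries, without overlap. Col3a1 itself measured 2831 to 5483 CPM (counts scaled to library size) in Col3a1+/+ and 4107 to 5208 CPM in Col3a1+/G182R, and the expected counts do not separate its alleles. All 5 smooth muscle markers were present, with summed levels of 25543 to 38754 CPM in Col3a1+/+ and 31041 to 35954 CPM in Col3a1+/G182R. Of these 5, 4 measured lower in Col3a1+/G182R. Striated muscle markers summed to 20.2 to 68.4 CPM in Col3a1+/+ and 15.8 to 17.6 CPM in Col3a1+/G182R libraries, with Myh4 at 0 in all 7. Macrophage markers measured higher in Col3a1+/G182R for 6 of 6 genes, with sums of 109 to 164 CPM against 139 to 360 CPM. Adipocyte markers measured higher for 5 of 6 genes, red blood cell markers for 5 of 5 and endothelium markers for 3 of 6. The sums of these 3 sets overlapped between genotypes.

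In the wild-type aorta the 10 messenger RNAs spanned a wide range of levels. Levels of different genes are compared in TPM, the abundance of transcripts scaled by their length and to the library. Mean levels in Col3a1+/+ were 192 TPM ± 63.6 (SD, n = 4) for Pcolce, 165 ± 20.6 for Loxl1, 144 ± 63.5 for Lox, 82.5 ± 21.5 for Bmp1, 68.6 ± 9.96 for Loxl3 and 62.2 ± 19.4 for Adamts2. Loxl2 followed with a mean of 25.9 TPM and a range of 17.2 to 41.8 TPM. Adamts14 at 3.02 TPM ± 0.949, Loxl4 at 1.35 ± 0.450 and Adamts3 at 0.295 ± 0.149 were far below them. Adamts2 was the most abundant of the N-proteinase messenger RNAs, and Loxl1 and Lox were the most abundant of the lysyl oxidases.

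Neighbours in this order were compared within each of the 7 libraries by an exact two-sided sign-flip permutation test of log2 TPM. P-values were adjusted over the 9 pairs, with 0.0156 as the smallest unadjusted p possible. The pairs and their direction were taken from the mean TPM of the Col3a1+/+ libraries, which are among the 7 tested. The p-values are therefore no independent support for the order. Adamts2 lay above Loxl2 in 7 of 7 libraries, by 1.21 ± 0.208 on the log2 scale (SD, n = 7; exact adjusted p = 0.0469). Loxl2 lay above Adamts14 in 7 of 7 by 3.30 ± 0.748, and Loxl4 above Adamts3 in 7 of 7 by 1.73 ± 0.607, both at the same exact adjusted p of 0.0469. These 3 steps passed the threshold with all libraries and none did with any 1 library left out (exact adjusted p = 0.0703 to 0.0938), where fewer pairs raise the smallest p possible.

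The other neighbours did not pass this threshold in TPM. Lox lay above Bmp1 by 1.04 ± 0.810 in 6 of 7 libraries (exact adjusted p = 0.0563), Bmp1 above Loxl3 by 0.38 ± 0.287 in 6 of 7 (exact adjusted p = 0.0703), and Adamts14 above Loxl4 by 0.87 ± 0.753 in 6 of 7 (exact adjusted p = 0.0563). With reads per kilobase of full gene length in place of TPM these 3 steps passed as well, at exact adjusted p-values of 0.0469, 0.0469 and 0.0352, so that 6 of the 9 steps did. Pcolce lay above Loxl1 in 6 of 7 libraries (exact adjusted p = 0.221), Loxl1 above Lox in 3 of 7 (0.875) and Loxl3 above Adamts2 in 3 of 7 (0.475). In Col3a1+/G182R the order of mean TPM was the same except that Lox passed Loxl1 and Adamts2 passed Bmp1 and Loxl3.

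**Figure D1:**
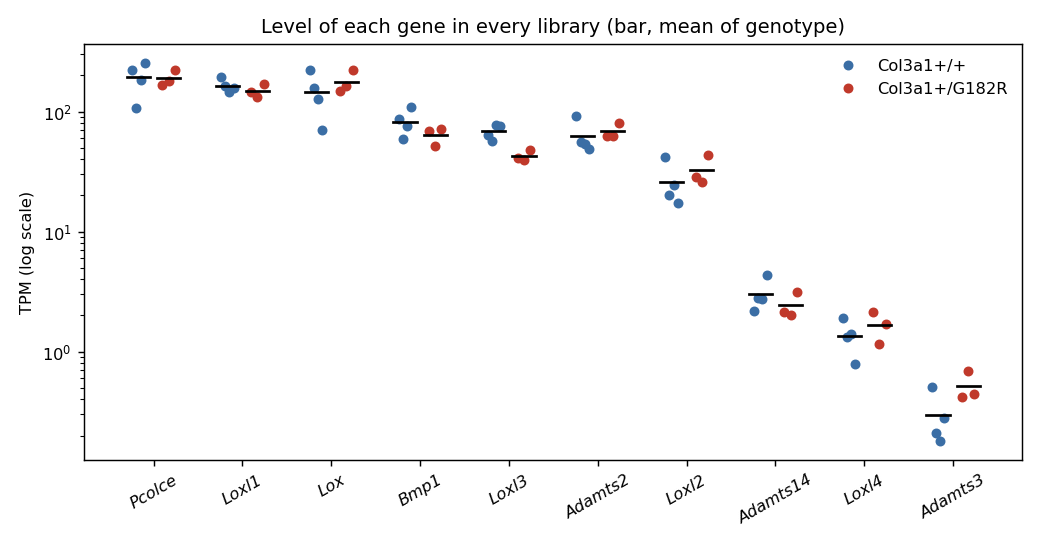
Level of each of the 10 genes in TPM on a log axis, with 1 point per library (blue, 4 Col3a1+/+; red, 3 Col3a1+/G182R) and a bar at the mean of each genotype. Adamts14, Loxl4 and Adamts3 sit at or below 4.38 TPM in every library, the other 7 genes at 17.2 TPM or more, and only the points of Loxl3 separate by genotype.

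Between genotypes, Loxl3 was the gene that separated most clearly, with a lower level in Col3a1+/G182R, and no gene of the 10 passed the threshold of the edgeR quasi-likelihood test. Of the 10, 0 had an adjusted p below 0.05, beside 0.0382% of all 15688 tested genes. At an unadjusted p below 0.05 there was 1 member, Loxl3, beside 20.4% of all genes. DESeq2 called 1 member, again Loxl3, beside 4.61% of all genes, and limma-voom called 0. In CPM, 1 of 10 members had genotypes that did not overlap, beside 20.9% of all tested genes. The mean was higher in Col3a1+/G182R for 6 members and lower for 4, with a median log2 fold change of 0.098 beside 0.0077 over all tested genes.

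**Figure D2:**
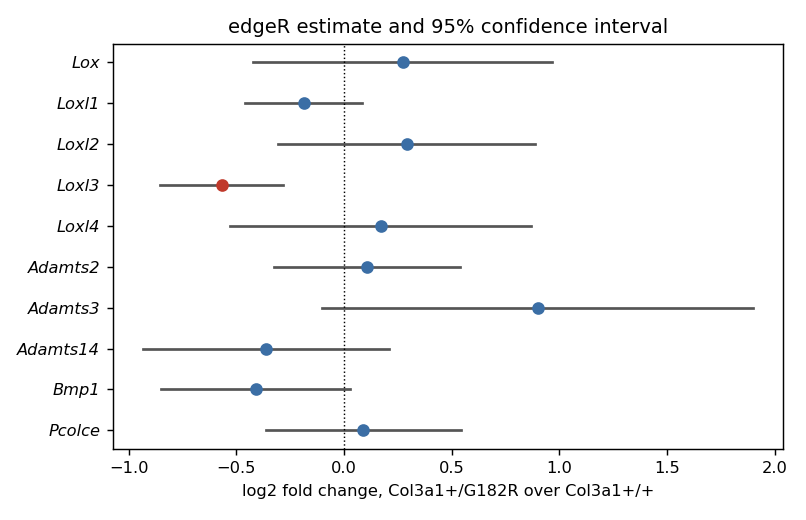
log2 fold change of each gene in Col3a1+/G182R over Col3a1+/+ from the edgeR fit (point) with its 95% confidence interval (line), and a dotted line at 0. The interval of Loxl3 (red) runs from -0.85 to -0.28, and the intervals of the other 9 genes (blue) include 0.

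Lox encodes lysyl oxidase, the enzyme of the family best known for cross-linking elastin and collagen of the vessel wall. The gene lies on the minus strand of chromosome 18. Its level was 667, 518, 427 and 216 CPM in Col3a1+/+ replicates 1 to 4, and 472, 533 and 651 CPM in Col3a1+/G182R replicates 1 to 3. The mutant values all lay inside the wild-type range, which was wide because replicate 1 was high and replicate 4 low. It had a log2 fold change of 0.27 (SE 0.310, 95% interval -0.42 to 0.96, edgeR adjusted p = 0.625). Without Col3a1+/+ replicate 4 it was 0.029 (adjusted p = 0.943), without Col3a1+/G182R replicate 3 it was 0.13 (adjusted p = 0.884), and without Col3a1+/+ replicate 1 it was 0.51 (adjusted p = 0.279).

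Loxl1 encodes the oxidase that binds fibulin-5 and maintains elastic fibres in the adult. It measured 417, 385, 353 and 354 CPM in the 4 Col3a1+/+ libraries and 333, 307 and 353 CPM in the 3 Col3a1+/G182R libraries. It was the steadiest of the 10 genes between wild-type mice, with a coefficient of variation of 8.10%. The mutant values lay at or below the lower edge of the wild-type range, and the genotypes met at 353 CPM. The estimated log2 fold change was -0.19 (SE 0.122, 95% interval -0.46 to 0.085, edgeR adjusted p = 0.389).

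Loxl2 encodes an oxidase of basement membrane type IV collagen and of fibrillar collagen. Its level was 147, 79.0, 96.2 and 63.3 CPM in Col3a1+/+ and 106, 99.6 and 148 CPM in Col3a1+/G182R. Both genotypes reached nearly the same top value, in replicate 1 of the wild type and replicate 3 of the mutant. The log2 fold change was 0.29 (SE 0.267, 95% interval -0.31 to 0.89, edgeR adjusted p = 0.540), and with 1 library left out it ran from 0.087 (adjusted p = 0.908) without Col3a1+/G182R replicate 3 to 0.57 (adjusted p = 0.122) without Col3a1+/+ replicate 1, with 0.13 without Col3a1+/+ replicate 4. Exons of Loxl2 share 301 of 5405 bases with Gm27177 on the opposite strand, which ran from 9.09 to 58.9 CPM. The library kit keeps the strand, but the strand setting of the counting is not given in the sources used here.

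Loxl3 was the only member whose genotypes did not overlap and the only one called by any test. It encodes an oxidase needed for palate and vertebral column development. It measured 118, 114, 145 and 131 CPM in Col3a1+/+ replicates 1 to 4 and 90.7, 79.3 and 87.1 CPM in Col3a1+/G182R replicates 1 to 3. The lowest wild-type library lay above the highest mutant library, and in TPM the genotypes were also apart, at 68.6 ± 9.96 (SD, n = 4) and 42.9 ± 4.48 (n = 3). Of all tested genes, 10.8% were likewise lower in Col3a1+/G182R without overlap.

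Loxl3 in Col3a1+/G182R had 0.675 of its level in Col3a1+/+, and the log2 fold change was -0.57 (SE 0.128, 95% interval -0.85 to -0.28). By the edgeR quasi-likelihood test this difference had an unadjusted p of 0.00133, rank 144 of 15688 genes, and an adjusted p of 0.145, so it was not called. DESeq2 gave the same log2 fold change of -0.57 and an adjusted p of 0.00363, and so called Loxl3 lower in Col3a1+/G182R. With 1 library left out, the edgeR adjusted p was 0.0592 to 0.428. DESeq2 kept the call without Col3a1+/+ replicate 1, 2 or 4 or Col3a1+/G182R replicate 1, and lost it without Col3a1+/+ replicate 3 (adjusted p = 0.0543), Col3a1+/G182R replicate 2 (0.156) or Col3a1+/G182R replicate 3 (0.0808).

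The estimate for Loxl3 was negative under each of the 22 alternatives tried, from -0.72 to -0.50. The lowest value came from the fit with effective gene lengths as an offset (edgeR adjusted p = 0.126). The effective length of Loxl3 was 2434 to 2757 bases in Col3a1+/+ and 2735 to 3054 bases in Col3a1+/G182R. The gap between full and effective gene length, which follows fragment length, ran from 114 to 131 bases over the same libraries. Fragment length and the mix of the 5 annotated transcripts of Loxl3 enter the estimate with the offset. Their part in the result was not tested. Exons of Loxl3 share 535 of 4603 bases with Htra2, a mitochondrial protease gene on the opposite strand. Htra2 measured 32.5 CPM ± 2.62 (SD, n = 4) in Col3a1+/+ and 25.9 ± 1.95 (n = 3) in Col3a1+/G182R (log2 fold change -0.33, SE 0.121, edgeR adjusted p = 0.191), and its part in the result was not tested.

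Loxl4, the last of the family, was near the lower end of detection, with 30 to 115 counts per library. It measured 4.63, 3.58, 3.87 and 2.03 CPM in Col3a1+/+ and 5.16, 3.07 and 3.73 CPM in Col3a1+/G182R. The genotypes overlapped over most of their range. This gave a log2 fold change of 0.17 (SE 0.312, 95% interval -0.53 to 0.87, edgeR adjusted p = 0.775), and it was -0.026 without Col3a1+/+ replicate 4 as well as -0.071 without Col3a1+/G182R replicate 1.

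Summed over the 5 lysyl oxidases, the level was 523, 398, 376 and 321 TPM in Col3a1+/+ replicates 1 to 4 and 366, 361 and 485 TPM in Col3a1+/G182R replicates 1 to 3. Lox made up 42.5, 39.5, 33.9 and 21.7% of the sum in the wild-type libraries and 40.3, 45.0 and 45.9% in the Col3a1+/G182R libraries. Loxl1 made up 34.9 to 49.1% over all 7 libraries. The share of Loxl3 was 12.1, 14.4, 20.7 and 23.6% of the sum in the wild-type libraries, against 11.3, 10.9 and 9.90% in the Col3a1+/G182R libraries. The shares of Loxl3 did not overlap between genotypes, and those of Lox did. The highest Loxl3 share and the lowest Lox share were both in Col3a1+/+ replicate 4.

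Adamts2 encodes the main procollagen N-proteinase, which is lacking in dermatosparactic Ehlers-Danlos syndrome. Its level was 439, 294, 287 and 247 CPM in Col3a1+/+ and 316, 329 and 379 CPM in Col3a1+/G182R. All mutant values lay between the highest wild-type library, replicate 1, and the other 3. The log2 fold change was 0.11 (SE 0.193, 95% interval -0.32 to 0.54, edgeR adjusted p = 0.771). Without Col3a1+/+ replicate 1 it was 0.31 (adjusted p = 0.201), without Col3a1+/G182R replicate 3 it was 0.017 (adjusted p = 0.978), and without Col3a1+/+ replicate 4 it was -0.00468 (adjusted p = 0.991).

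Adamts3 encodes an N-proteinase that also activates the lymphatic growth factor VEGFC. It was the scarcest member, with 6 to 39 counts per library. It measured 1.16, 0.528, 0.363 and 0.541 CPM in Col3a1+/+ and 0.988, 1.66 and 1.05 CPM in Col3a1+/G182R. The mutant libraries lay above 3 of the 4 wild-type libraries, and Col3a1+/+ replicate 1 fell among them. Its log2 fold change, the largest of the 10 in size, was 0.90 (SE 0.446, 95% interval -0.10 to 1.90, edgeR adjusted p = 0.280), and DESeq2 gave no adjusted p because of its low counts. Without Col3a1+/+ replicate 1 the log2 fold change was 1.37 (edgeR adjusted p = 0.0954), and without Col3a1+/G182R replicate 2 it was 0.63 (adjusted p = 0.614).

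Adamts14 encodes the third N-proteinase of procollagen. It measured 7.46, 10.6, 10.6 and 15.7 CPM in Col3a1+/+ and 7.81, 7.51 and 10.5 CPM in Col3a1+/G182R, so that all mutant values lay within the wild-type range. This gave a log2 fold change of -0.36 (SE 0.255, 95% interval -0.93 to 0.21, edgeR adjusted p = 0.426). It was -0.16 (adjusted p = 0.699) without Col3a1+/+ replicate 4, the highest library. The 3 N-proteinases together measured 93.6, 58.3, 56.4 and 53.6 TPM in Col3a1+/+ and 64.7, 65.7 and 84.6 TPM in Col3a1+/G182R, and the sum followed Adamts2.

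Bmp1 encodes the C-proteinase, a tolloid enzyme that also processes the precursors of lysyl oxidase and several matrix proteins. Its level was 221, 165, 220 and 296 CPM in Col3a1+/+ and 188, 141 and 180 CPM in Col3a1+/G182R. The mutant values lay low in or below the wild-type range, with Col3a1+/+ replicate 2 among them. Its log2 fold change was -0.41 (SE 0.196, 95% interval -0.85 to 0.027, edgeR adjusted p = 0.265). Without Col3a1+/+ replicate 4 it was -0.26 (adjusted p = 0.355), and without Col3a1+/+ replicate 2 it was -0.53 (adjusted p = 0.175).

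Pcolce encodes the enhancer that raises the rate of the cut by BMP1. It measured 127, 68.8, 94.6 and 115 CPM in Col3a1+/+ and 92.5, 109 and 122 CPM in Col3a1+/G182R. The mutant values lay inside the wild-type range, whose lowest library was replicate 2. The estimated log2 fold change was 0.089 (SE 0.202, 95% interval -0.36 to 0.54, edgeR adjusted p = 0.822), and it was -0.059 without Col3a1+/+ replicate 2 as well as -0.014 without Col3a1+/G182R replicate 3. The effective length of Pcolce, a gene with 12 annotated transcripts, ran from 639 to 860 bases between libraries, so that its order by TPM and by CPM differed, and Col3a1+/+ replicate 4 was highest in TPM at 254.

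**Figure D3:**
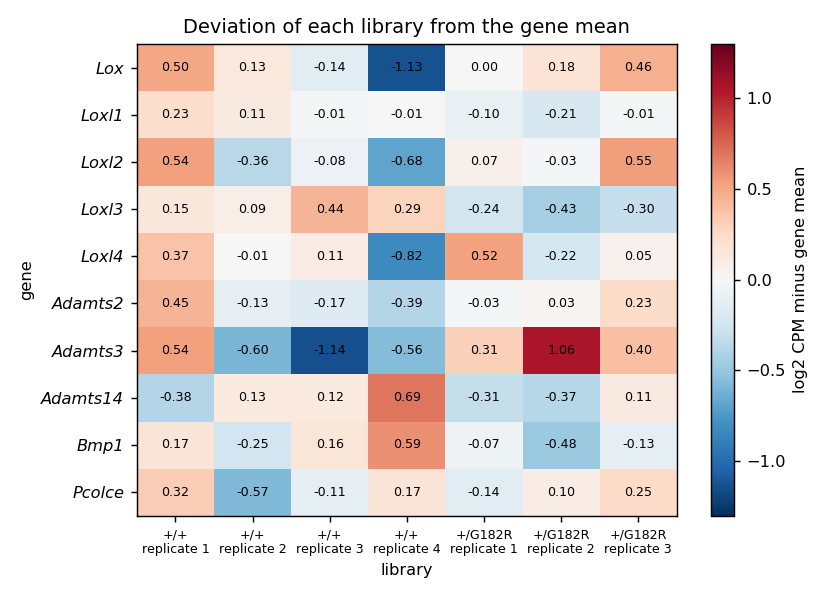
Deviation of each of the 7 libraries (columns, labelled by genotype and replicate) from the mean of each gene (rows) in log2 CPM, with the value written in each cell (red above, blue below the mean). Col3a1+/+ replicate 4 has Lox at -1.13, Loxl4 at -0.82 and Loxl2 at -0.68, beside Adamts14 at 0.69 and Bmp1 at 0.59, and Loxl3 is above its mean in all 4 Col3a1+/+ and below it in all 3 Col3a1+/G182R libraries.

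Of all departures from a gene mean, the largest in size were those of Adamts3 in Col3a1+/+ replicate 3 (-1.14 on the log2 scale, from 6 counts) and of Lox in Col3a1+/+ replicate 4. Col3a1+/+ replicate 4 was below the mean for Lox (-1.13 on the log2 scale) and above it for Adamts14 (0.69) and Bmp1 (0.59). Col3a1+/+ replicate 1 was above the mean for 9 of the 10 genes and below it for Adamts14 alone. Pearson's r of log2 CPM over the 7 libraries was highest, at 0.94, for Loxl2 and Adamts2. Next came 0.86 for Lox and Adamts2 and 0.85 for Lox and Loxl2. The lowest values were -0.84 for Loxl3 and Adamts3, -0.77 for Lox and Adamts14 and -0.76 for Loxl4 and Adamts14. These are descriptions of 7 points that share libraries and depth. Both genotypes are pooled in them, so a genotype difference enters each value. The summed fibroblast markers were 1033, 520, 669 and 600 CPM in Col3a1+/+ replicates 1 to 4 and 850, 997 and 1084 CPM in Col3a1+/G182R replicates 1 to 3, with 6 of 6 markers measured higher in Col3a1+/G182R, and their part in the levels of these genes was not tested.

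Whether an enzyme was high or low against the messenger RNA of a chain it acts on was read from 5 ratios of TPM, each compared between genotypes by an exact two-sided permutation test over the 35 splits of the mice, for which 0.0286 is the smallest p possible. Lox relative to Eln, the gene of elastin, was 2.38, 2.38, 2.34 and 1.31% in Col3a1+/+ replicates 1 to 4, against 2.77, 3.10 and 3.07% in Col3a1+/G182R replicates 1 to 3. All mutant ratios lay above all wild-type ratios. The difference of the mean log2 ratio was 0.55, with an exact permutation p of 0.0286 and an adjusted p of 0.143 over the 5 ratios. That did not pass the threshold, and a single ratio at the smallest possible p could not pass it over 5 ratios. Without Col3a1+/+ replicate 4 the difference was 0.33, and the genotypes still did not overlap. Eln itself had mean levels of 6678 TPM in Col3a1+/+ and 5934 TPM in Col3a1+/G182R.

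The other 4 ratios overlapped between genotypes in TPM. Loxl1 relative to Eln ran from 2.08 to 2.95% in the wild type and from 2.33 to 2.75% in Col3a1+/G182R, with a difference of 0.00706 on the log2 scale (exact permutation p = 1). Lox relative to Col1a1, a chain of type I collagen, was 15.1 to 54.9% and 47.3 to 55.3%, with a difference of 0.53 (exact permutation p = 0.4, adjusted p = 0.667) that was 0.13 without Col3a1+/+ replicate 4. Adamts2 relative to Col3a1 was 2.48 to 3.34% and 2.68 to 2.96%, with a difference of 0.020 (exact permutation p = 0.886). Pcolce relative to Col1a1 was 37.3 to 60.8% and 53.3 to 55.3%, with a difference of 0.18 (exact permutation p = 0.4, adjusted p = 0.667). With CPM in place of TPM this ratio was 5.60 to 7.03% in the wild type and 7.20 to 7.97% in Col3a1+/G182R, without overlap, and the difference was 0.30 (exact permutation p = 0.0571, adjusted p = 0.143). On the same scale Lox relative to Eln had a difference of 0.49 with the same exact permutation p of 0.0571.

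**Figure D4:**
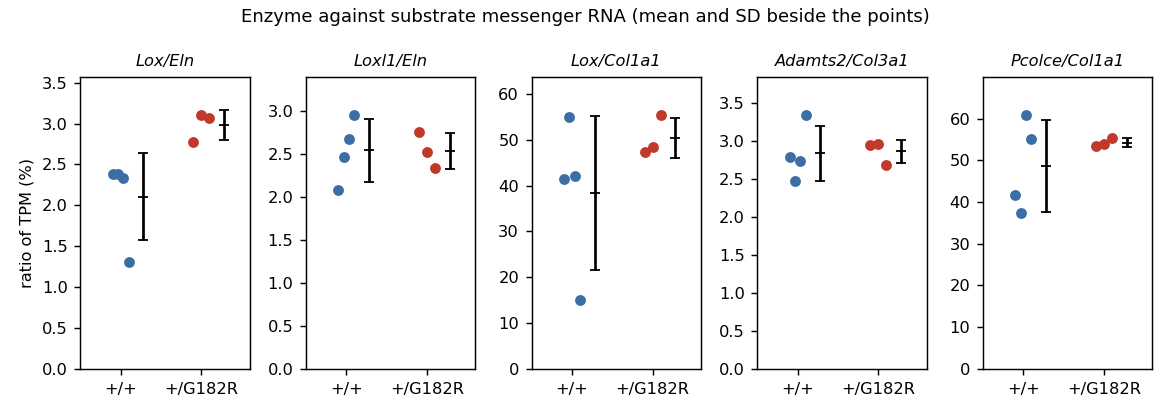
Ratio of each enzyme or enhancer to a chain it acts on, in percent of TPM, with 1 point per library (blue, 4 Col3a1+/+; red, 3 Col3a1+/G182R) and the mean with SD beside the points; each panel has its own axis from 0. The Lox/Eln points of Col3a1+/+ run from 1.31 to 2.38% and those of Col3a1+/G182R from 2.77 to 3.10%, and the other 4 ratios of TPM overlap.

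The genes around these enzymes were read from the same fit in 8 lists, of which 64 genes were tested. In each list the edgeR test called 0 genes in either direction. At an unadjusted p below 0.05 there were 0 fibrillar collagens of 8, 2 elastic fibre genes of 13, 1 lysyl hydroxylase or partner of 7, 1 other propeptide proteinase or convertase of 6, 1 copper gene of 8, 2 matrix partners of 11, 2 other tolloid substrates of 7 and 1 gene of the Adamts3 and Vegfc axis of 4. Together these were 10 of 64 genes, or 15.6%, beside 20.4% of all tested genes. DESeq2 called 4 of the 64, or 6.25%, beside 4.61% of all tested genes, with 3 lower and 1 higher in Col3a1+/G182R. In the order given, the median log2 fold changes of the lists were -0.16, 0.030, -0.15, 0.18, 0.059, 0.24, -0.17 and 0.33, beside 0.0077 over all tested genes. The shares of genes without overlap in CPM were, in the same order, 12.5, 15.4, 28.6, 16.7, 12.5, 18.2, 42.9 and 25%. Over all tested genes this share was 20.9%.

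**Figure D5:**
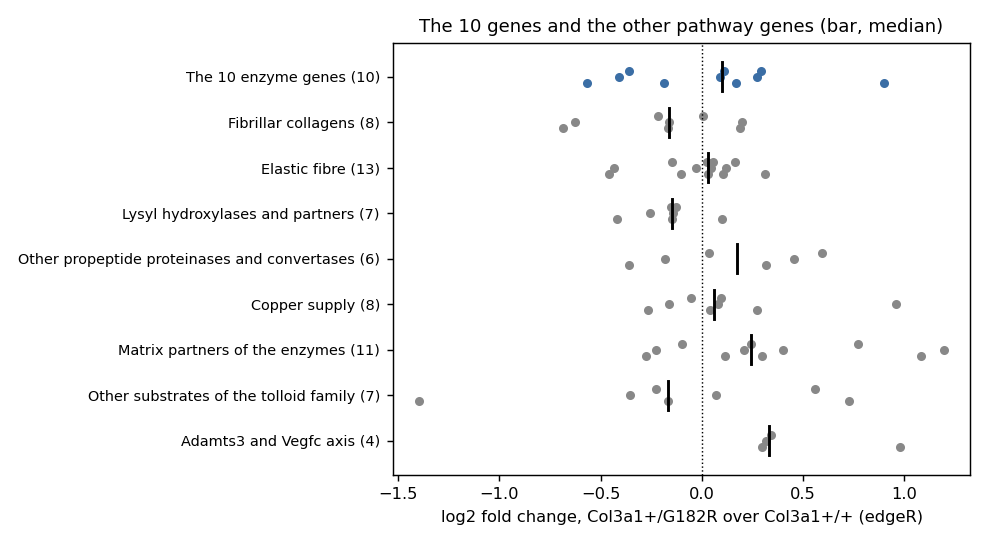
log2 fold change in Col3a1+/G182R over Col3a1+/+ from the edgeR fit for the 10 enzyme genes (blue) and for the tested genes of 8 lists around them (grey, number of genes in parentheses), with a bar at each median; the vertical offset of points only separates them. The medians run from -0.17 to 0.33, and the points of every list but the Adamts3 and Vegfc axis lie on both sides of 0.

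Among the substrates, the fibrillar collagens measured higher in Col3a1+/G182R for 3 of 8 genes and lower for 5. The 4 with the smallest p were Col11a2 (log2 fold change -0.69, adjusted p = 0.255), Col27a1 (-0.63, 0.296), Col5a1 (-0.17, 0.443) and Col1a1 (-0.22, 0.541), all by the edgeR test. The major chain Col1a1 had 1640 CPM ± 418 (SD, n = 4) in Col3a1+/+ and 1411 ± 120 (n = 3) in Col3a1+/G182R. Col2a1, Col11a1 and Col24a1 had too few reads to be tested.

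Of the elastic fibre genes, 8 of 13 measured higher and 5 lower. Ltbp2, a microfibril-associated protein, had 173 CPM ± 22.7 (SD, n = 4) and 126 ± 12.7 (n = 3), a log2 fold change of -0.46 (SE 0.141) with an adjusted p of 0.168 by edgeR and 0.0448 by DESeq2. Mfap4, a glycoprotein that binds elastin microfibrils, had 1422 CPM ± 177 and 1052 ± 148, a log2 fold change of -0.43 (SE 0.153, edgeR adjusted p = 0.181). Both genes were without overlap between genotypes, like 20.9% of all tested genes. Fbln2, the gene of fibulin-2, had a log2 fold change of 0.31 (edgeR adjusted p = 0.526) and Efemp2, whose protein fibulin-4 brings lysyl oxidase to elastin, of -0.10 (edgeR adjusted p = 0.622).

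The lysyl hydroxylases modify collagen lysines inside the cell before the lysyl oxidases act on them, and 6 of the 7 genes of this list measured lower in Col3a1+/G182R. Fkbp10, a prolyl isomerase that works with lysyl hydroxylase 2, had 177 to 189 CPM in the 4 Col3a1+/+ libraries and 122 to 145 CPM in the 3 Col3a1+/G182R libraries, without overlap. Its log2 fold change was -0.42 (SE 0.116), with an adjusted p of 0.158 by edgeR and 0.0108 by DESeq2. P3h4 (log2 fold change -0.26, edgeR adjusted p = 0.288), Ppib (-0.14, 0.463) and P3h3 (-0.15, 0.489) followed, and Ppib was also without overlap.

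Among the other propeptide proteinases and convertases, the proprotein convertase Pcsk7 had a log2 fold change of -0.36 (edgeR adjusted p = 0.209) without overlap. Pcolce2, the second enhancer, had 0.45 (0.282), Furin, which activates BMP1 and the ADAMTS enzymes by cutting off their own propeptides, had 0.32 (0.321), and Pcsk5 had -0.18 (0.520). Tll1, a tolloid relative of Bmp1, was tested at 0.589 CPM ± 0.353 (SD, n = 4) in Col3a1+/+ and 0.901 ± 0.389 (n = 3) in Col3a1+/G182R. Tll2, Mep1a and Mep1b had too few reads to be tested, and Mep1a and Mep1b were at 0 in all libraries.

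Copper reaches the lysyl oxidases through the pump ATP7A in the secretory pathway. Atp7a measured 6.21, 4.28, 3.32 and 1.35 CPM in Col3a1+/+ and 7.23, 7.72 and 7.41 CPM in Col3a1+/G182R, without overlap. The log2 fold change was 0.96 (SE 0.386, edgeR adjusted p = 0.212, DESeq2 adjusted p = 0.122). The copper chaperones Ccs (-0.27, edgeR adjusted p = 0.315) and Atox1 (-0.16, 0.517) and the metallothionein Mt2 (0.27, 0.485) completed the 4 with the smallest p, and 5 of the 8 tested genes measured higher.

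Matrix proteins that bind the enzymes or steer their action measured higher in Col3a1+/G182R for 8 of 11 genes. Lum, the gene of the collagen-binding proteoglycan lumican, had 99.9, 53.7, 37.1 and 23.1 CPM in Col3a1+/+ and 117, 131 and 121 CPM in Col3a1+/G182R, without overlap. Its log2 fold change was 1.20 (SE 0.387), with an adjusted p of 0.171 by edgeR and 0.0425 by DESeq2. Dcn, the gene of decorin, had a log2 fold change of 1.08 (SE 0.407, edgeR adjusted p = 0.194) with an overlap through Col3a1+/+ replicate 1. Thbs1, the gene of thrombospondin-1, had 0.77 (0.297) and Bgn, the gene of biglycan, -0.23 (0.328), the latter without overlap. Lum and Dcn are made by fibroblasts, and the fibroblast marker sums given above moved in the same direction, whose part in these values was not tested.

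Other substrates of the tolloid enzymes were mixed, with 3 of 7 higher and 4 lower. Col7a1, the anchoring fibril collagen, had 1.90, 3.93, 4.29 and 6.23 CPM in Col3a1+/+ and 1.71, 1.28 and 1.63 CPM in Col3a1+/G182R, without overlap. Its log2 fold change was -1.40 (SE 0.389), with an adjusted p of 0.158 by edgeR and 0.0234 by DESeq2. Ogn, the gene of the proteoglycan osteoglycin, had 539 CPM ± 196 (SD, n = 4) and 891 ± 99.1 (n = 3), a log2 fold change of 0.73 (SE 0.282, edgeR adjusted p = 0.203). Chrd (-0.36, edgeR adjusted p = 0.272) and Hspg2, the gene of perlecan (-0.23, 0.315), measured lower. Ogn and Hspg2 were also without overlap, and Mstn was at 0 in all libraries.

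All 4 genes of the Adamts3 and Vegfc axis measured higher in Col3a1+/G182R, and none was called by edgeR or DESeq2, with 1 at an unadjusted edgeR p below 0.05. Ccbe1, whose protein assists ADAMTS3 in activating VEGFC, had 1.39, 1.70, 0.846 and 0.812 CPM in Col3a1+/+ and 2.29, 2.39 and 2.42 CPM in Col3a1+/G182R, without overlap. Its log2 fold change was 0.98 (SE 0.332, edgeR adjusted p = 0.176). Vegfc (0.30, edgeR adjusted p = 0.549), the receptor gene Flt4 (0.32, 0.696) and Reln, another ADAMTS3 substrate (0.34, 0.696), overlapped between genotypes. The 4 lymphatic endothelium markers, Flt4 among them, summed to 12.1 to 22.2 CPM in Col3a1+/+ and 22.1 to 39.4 CPM in Col3a1+/G182R, and their part in these values was not tested.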

How the data were processed

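Each library was deposited as 1 gene table. Per the submitters' processing notes, the authors aligned reads to GRCm38 using STAR 2.7.6a and estimated expected counts per gene with RSEM 1.3.1, which shares a read matching several genes among them. The TPM values, deposited in the same tables, are scaled by effective length within each library. The deposited effective gene lengths, a further column of other numbers by the authors, entered 1 alternative fit, and the deposited FPKM values were not used. The annotation release and the strand setting are not given in the sources used here, and the paper's methods name featureCounts. Symbols came from GENCODE M21 for 55141 of 55487 identifiers.

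After rounding of the expected counts, genes that passed filterByExpr (minimum count 10) were scaled with TMM and compared between genotypes with the two-sided quasi-likelihood test of edgeR 4.0.16 in R 4.3.3, with all 7 libraries, no covariate, Benjamini-Hochberg adjustment over all 15688 genes and a threshold of 0.05. CPM values use the TMM factors. Log2 CPM for correlations and deviations had a prior count of 2, and levels were compared on log2(TPM + 0.1). DESeq2 1.42.0 and limma 3.58.1 were run beside it. The test script was tested on simulated data.

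Named were all 10 genes, Col3a1, up to 4 genes of each list with the smallest p, and the 3 genes most correlated with Lox and with Pcolce. Eln, Htra2, Tll1 and genes overlapping a member are named for the ratios, overlaps or roles, after their values were seen. The members and lists were chosen with earlier results of these data known. There were 3 to 4 mice per genotype. The edgeR, DESeq2 and limma-voom p-values weigh a genotype difference against the spread between these mice, estimated with information shared across genes. The level-order p-values compare neighbouring genes within libraries of both genotypes. The sequence of the Lox stretch is not reported here.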

Additional observations from a re-analysis of the deposited data

Results flagged for a closer look

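In the 25 checks of 4 Col3a1+/+ libraries for a value far from the others (Dixon's test), of which chance alone would mark about 1 in 20, 2 values stood apart. Adamts2 in Col3a1+/+ replicate 1, at 91.0 TPM beside 49.0 to 55.3 TPM in the other 3, had a gap of 0.850 of the whole range. The ratio of Lox to Eln in Col3a1+/+ replicate 4, at 1.31% beside 2.34 to 2.38%, had a gap of 0.957 of the range.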

How the results depend on the processing

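Under the edgeR settings and limma-voom 0 of the 10 genes were called, and DESeq2 called 1, Loxl3. DESeq2 with 1 library left out, chosen after seeing the data, called 0 to 1 of the 10. Calls over all genes numbered 6 with edgeR, 723 with DESeq2, 11 with limma-voom, 353 without the low-count filter, 14 with the effective length offset and 46 with the replicate block, and with 1 library left out 0 to 183 in edgeR and 120 to 1860 in DESeq2. The highest edgeR count came without Col3a1+/+ replicate 1 and the next, 32, without Col3a1+/+ replicate 4. Of the 64 pathway genes, 0 were called by edgeR, 4 by DESeq2, 1 without the filter, and with 1 library left out 0 to 3 in edgeR and 0 to 7 in DESeq2. The sign turned for Pcolce with the effective length offset (-0.043) and for Loxl4 with the replicate block (-0.033). With 1 library left out, in edgeR or DESeq2, the log2 fold change ran from -0.066 to 0.22 for Pcolce, from -0.071 to 0.33 for Loxl4 and from -0.0047 to 0.31 for Adamts2. The 7 other members kept their sign under all 22 alternatives. With 1 library left out the mean difference of Loxl1 over Lox ran from -0.11 (without Col3a1+/+ replicate 4) to 0.15, that of the Loxl1/Eln ratio from -0.085 to 0.083 and that of Adamts2/Col3a1 from -0.042 to 0.10. On CPM both ratio differences turned, to -0.074 and -0.082, and that of Pcolce/Col1a1 was 0.30 (exact adjusted p = 0.143) instead of 0.18 (0.667). By reads per kilobase 6 of 9 steps in level passed in place of 3. Libraries of equal replicate number had correlations of -0.0469, 0.0153 and 0.0777 between deviations, and the block changed no call of a member. These correlations had no unmatched pairs beside them and cannot tell whether the mice were paired. The causes of these shifts were not tested. Depth limited Adamts3 (6 to 39 counts) and Loxl4 (30 to 115 counts) most.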

Other observations

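Among 15687 other genes, those whose log2 CPM followed Lox most closely over the 7 libraries were Anln, the gene of the cytokinesis protein anillin (Pearson's r 0.995, Spearman's rho 0.964), Dnajc25 (0.992, 0.929) and Chsy3, a chondroitin synthase gene (0.991, 0.929). With the 2 libraries farthest from the median of Lox, Col3a1+/+ replicates 4 and 1, left out, r was 0.969, 0.936 and 0.943. For Pcolce they were Gm49493 (r 0.991), Klk8 (0.988) and Nploc4 (0.987), each with a rho of 0.964. There were 137 genes with r above 0.95 to Lox and 16 to Pcolce. These values describe 7 libraries that share depth and scaling, and were picked as the highest of many.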
